A study of Homo sapiens with 2 samples.

Results

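Interferon-stimulated genes were examined at single-cytosine resolution in RNA BS-Seq data, through 9 genes (ISG15, BST2, IFI27, IFI6, IFITM1, IFITM2, IFITM3, IFIT3 and MX1). Their members are the cytosine sites with a coverage (unconverted plus converted reads) of at least 10 on exons, of the same strand, of transcripts in the GENCODE release 44 basic set (GRCh37 mapping) that carry one of these gene names. This gave 516 of the 1584002 kept sites of MCF10A, on 7 of the genes, and 1741 of the 1271253 kept sites of MDA-MB-468, on all 9. A total of 479 of these sites were kept in both lines and 1778 in either. The genes were proposed with earlier results of the same libraries known and the sites were selected on coverage, so coverage is given as a description without a test.

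The data come from 1 RNA BS-Seq library of MCF10A, an immortalised mammary epithelial line used as the normal control, and 1 of MDA-MB-468, an epithelial breast cancer line. The labels name no interferon or other treatment of either culture, and no allele or transgene. Total RNA was selected for poly(A) and incubated with sodium bisulfite at 60 degrees for 8 hours, a step in which cytosine is read as T unless it carries m5C or escapes conversion. With no replicates, each test below compares the 2 libraries and not the conditions, and the spread between cultures is unknown.

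Interferons bind receptors on the cell surface and act through JAK kinases and STAT factors. A complex that holds STAT2 and IRF9 binds the interferon-stimulated response element in promoters, and the resulting gene products restrict viral entry, replication and release. These genes are usually low in unstimulated epithelium, and some tumours and tumour cell lines keep them on without added interferon.

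The deposited files held 60580227 counts over the kept sites of MCF10A and 42429746 over those of MDA-MB-468. The median coverage was 18 in each, and 1.99% and 1.81% of these counts were unconverted. Of the 21 marker genes found in the annotation, KRT8, KRT18, KRT5, KRT17, EGFR and ERBB2 had kept sites in both lines. EPCAM, CDH1 and CDKN2A had them in MDA-MB-468 only, while SMAD4 and RB1 had them in MCF10A only, on 157 and 11 cytosines. KRT14, ESR1 and PGR had none in either. Among 6 markers of immune, fibroblast and endothelial cells, PTPRC, CD3E, COL1A2, PDGFRB and VWF had no kept site in either line, and COL1A1 had 267 in MDA-MB-468. Fewer cells that express a gene and less RNA per cell cannot be told apart in such bulk libraries.

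The sequences on which the results turn are given in the direction of the RNA, with cytosines called as m5C in capitals. The IFITM1 cluster of MDA-MB-468 had methylation ratios of up to 33.3% at a coverage of at least 20, and the IFI27 stretches were called in the line named. All coordinates of these sites are GRCh37.

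IFITM1, coding sequence, plus strand, chr11:314202-314228, MDA-MB-468: tggggccaccCCCCagCaccatccttc
IFI27, coding sequence, plus strand, chr14:94582147-94582176, MDA-MB-468: ctcagtgCCatgggCttcactgCggcggga
IFI27, 5′UTR, plus strand, chr14:94578012-94578026, MDA-MB-468: aattaaCCCgagcag
IFI27, 5′UTR and start of the coding sequence, plus strand, chr14:94578017-94578046, MCF10A: aCCCgagCaggCatggaggCCtCtgCtCtC
IFI27, coding sequence, plus strand, chr14:94582205-94582233, MCF10A: tgatgtCCgCggCggCCattgCCaatggg
IFITM1, 5′UTR, plus strand, chr11:314083-314112, MCF10A: atCCggaCaCCaCagCggCCCttCgCtCCa
BST2, coding sequence, minus strand, chr19:17516167-17516196, MCF10A: tCgCaatgtCaCCCatCtCCtgCaaCaaga

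The 3 IFI27 cytosines in capitals in the 5′UTR of MDA-MB-468 are the same as the first 3 capitals of the MCF10A stretch. In the MCF10A stretches shown the capitals take in nearly every cytosine. Other stretches were sparser, with 2 of 4 kept cytosines called at chr19:17516217-17516226 in BST2 and 2 of 6 at chr1:949558-949567 in ISG15.

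The promoters were read because these genes are defined by an induction signal. RefSeq promoter windows (GRCh38.p14, 250 bases before to 50 bases after the start) were found for 8 of the 9 genes, 12 windows in all. The response element, searched on both strands as GAAANNGAAA, was present in 11 of the 12 windows and in 1255 of all 35116 windows (3.57%). The gamma-activated site, searched as TTCNNNGAA, which can overlap it, was present in 5 of the 12 and in 7.66% of all. Windows of a gene can overlap, and the 2 of IFI27 hold the same matches. Counted by gene, the response element was present in 8 of 8 and the gamma-activated site in 4 of 8. A match describes the letters of a window and is not a measured binding site. The elements of ISG15, BST2 and IFI6 are shown in capitals as examples, each read along the gene.

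ISG15, plus strand, chr1:1013380-1013409 (GRCh38.p14): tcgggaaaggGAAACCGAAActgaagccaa
BST2, minus strand, chr19:17405741-17405770 (GRCh38.p14): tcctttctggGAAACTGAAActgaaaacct
IFI6, minus strand, chr1:27672329-27672358 (GRCh38.p14): ggagagagggGAAAATGAAActctgcagag

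Coverage of most of these genes was far deeper in MDA-MB-468. After scaling to the counts of all kept nuclear exonic sites, 6 of the 9 members passed a bound of 4-fold in that direction against 2.48% of the 9322 protein-coding genes compared, and none passed it in the other direction against 0.858%. Since coverage selected these sites, nothing is read from this share. Of 13 marker genes of epithelial and other cells that could be compared, 6 passed the same bound toward MDA-MB-468, with KRT18 and KRT17 highest and EGFR (at least 9.49-fold) and KRT8 (8.47) next, and none toward MCF10A, and the part of such a shift in the members' coverage was not tested. The bound gives each cytosine that was not in the file 4 reads in the lower line and none in the higher, because the files start at a coverage of 5.

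IFI27, an interferon-induced protein of mitochondria and the nuclear membrane, showed the largest contrast of the 9. Its 39 kept sites in MCF10A had a median coverage of 11 reads (range 10 to 15), and its 164 sites in MDA-MB-468 a median of 652.5 (range 12 to 2047). Its coverage was at least 128-fold higher in MDA-MB-468. The ranges of the lines met only at the lowest sites of MDA-MB-468.

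ISG15, the ubiquitin-like modifier that is attached to other proteins, had a median coverage of 12 on 47 sites in MCF10A and 147 on 179 sites in MDA-MB-468, a bound of at least 23.5-fold. BST2, which tethers budding virions to the cell surface, had a median of 18 on 93 sites and 124 on 239 sites, at least 19.6-fold. IFI6, a small membrane protein of the IFI27 family, had a median of 16 on 96 sites and 196 on 145 sites, at least 17.2-fold. In each of these 3 genes the median of MDA-MB-468 was above the highest site of MCF10A.

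The IFITM proteins block the fusion of viral and cellular membranes, and the values of their genes differed. IFITM1 had a median coverage of 13 on 25 sites in MCF10A and 137.5 on 162 sites in MDA-MB-468, at least 18.7-fold higher in the latter. IFITM3 had a median of 35 on 67 sites and 33 on 125 sites, and its summed counts gave a bound of at least 3.80-fold, short of the limit of 4. IFITM2 was the single member with the greater scaled sum of counts in MCF10A, where 149 sites had a median of 55 against 17 on 112 sites, a bound of at least 1.53-fold. These 3 genes are close paralogues, and the 51-base window of a site, read with every C as T, also occurred on a transcript of another gene at 22 of the 149 MCF10A sites of IFITM2, 16 of 67 of IFITM3 and none of 25 of IFITM1. In MDA-MB-468 it did so at 11 of 112, 39 of 125 and 56 of 162 sites. There 50 of the IFITM1 sites also lay on an exon of another gene, so the gene to which reads at those sites belong is uncertain. The other gene was not always an IFITM paralogue. At chr11:315071, the deepest IFITM1 site of MDA-MB-468, it was an annotation that overlaps IFITM1 on the same strand.

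MX1, a dynamin-like GTPase that acts on viral nucleocapsids, and IFIT3, a scaffold of the complex that recognises viral RNA ends, had no kept site in MCF10A. MX1 had no deposited cytosine there at all among its 1987 exonic cytosines, so each carried at most 4 reads, and IFIT3 had 31 deposited sites with 162 counts, all below the minimum. In MDA-MB-468 MX1 had 515 sites with a median coverage of 40, of which 45 lay opposite an exon of an antisense gene, and IFIT3 100 sites with a median of 32. The bound was at least 4.84-fold for MX1. For IFIT3, where most of the 1082 exonic cytosines had too few reads in either line, it was at least 1.39-fold and does not show a difference of 4-fold.

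**Figure D1:**
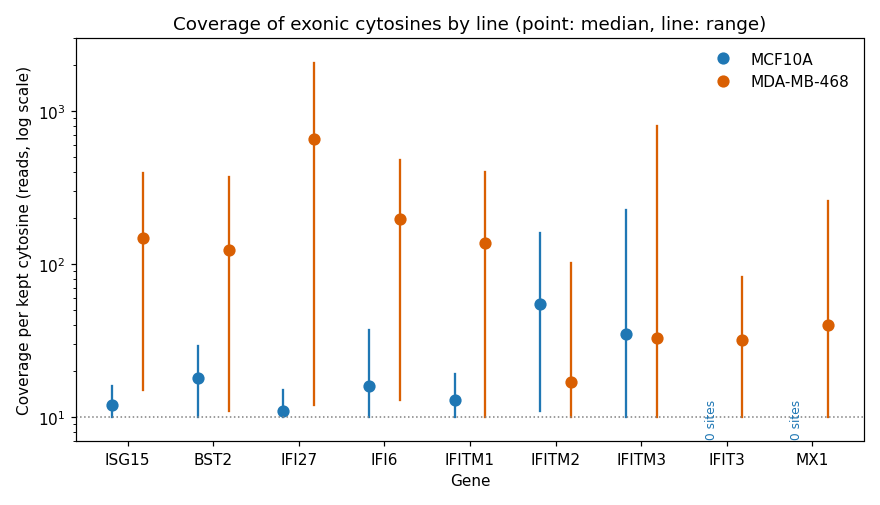
Coverage of the kept exonic cytosines of each gene on a log axis in reads, with MCF10A in blue and MDA-MB-468 in orange. Points are medians over cytosines, lines run from the lowest to the highest site, and the dotted line is the minimum coverage of 10. The MDA-MB-468 medians of ISG15, BST2, IFI27, IFI6 and IFITM1 lie between 124 and 652.5 against 11 to 18 in MCF10A, and IFIT3 and MX1 have 0 sites in MCF10A.

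Near the threshold, 52 and 35 member cytosines of MCF10A had a coverage of 8 and 9 and were left out, while 28 and 44 had a coverage of 10 and 11 and were kept. In MDA-MB-468 these numbers were 61 and 49 outside and 40 and 49 inside. Since the MCF10A medians of ISG15, BST2, IFI27, IFI6 and IFITM1 lay between 11 and 18, depth set what could be called there. A call needed 4 unconverted reads out of 10 in each line (40%), and out of 1000 it needed 37 in MCF10A (3.7%) and 35 in MDA-MB-468 (3.5%). Low methylation ratios were therefore not detectable on these genes in MCF10A.

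The share of unconverted reads differed in the opposite sense to coverage. Over all member sites 1220 of 18785 counts were unconverted in MCF10A, 6.49% (95% Wilson interval 6.15% to 6.86%). In MDA-MB-468 it was 4352 of 282861, 1.54% (1.49% to 1.58%), below the 1.77% of all nuclear exonic sites. Intervals cover counting error only, and a read gives counts at several cytosines, which makes them too narrow. By Fisher's exact test, one-sided against the background and with Benjamini-Hochberg adjustment over all kept sites, 113 member sites in 6 genes were m5C sites in MCF10A. This is 21.9% of the 516, against 0.96% of all kept sites. From a coverage of 20 upward 22 of 238 sites of MCF10A were called, with an unconverted share of 2.02%. IFI27, IFITM1 and ISG15 have no MCF10A site that deep, so these 238 sites come from the other genes. In MDA-MB-468 24 sites in 5 genes were called, 1.38% of the 1741 against 0.84%. The median coverage of these 1741 sites was 70, against 18 over all kept sites, and deeper sites are called at lower ratios. With a ratio of at least 20% also required, 8 of the 1741 were called. The shares of all kept sites called under this limit and from a coverage of 20 upward were not computed. The part of depth in the 1.38% was not tested. An m5C site here means a cytosine with more unconverted reads than the background allows, and unconverted reads from any other source are counted alike.

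IFI27 was the most unconverted of the members in MCF10A. There 327 of 458 counts were unconverted (71.4%, 95% Wilson interval 67.1% to 75.3%), and all 39 of its kept sites were called, in 4 stretches (chr14:94578018-94578057, 94582184-94582200, 94582211-94582227 and 94582814-94582834). On the strand opposite its exons 757 of 766 counts of this library were also unconverted, and their part in this share was not tested. In MDA-MB-468 1684 of 119625 counts were (1.41%), and 9 of 164 sites were called. At the 3 cytosines chr14:94578018-94578020, the only member sites called in both lines, the unconverted reads were 12 of 13, 12 of 12 and 13 of 13 in MCF10A. The same cytosines gave 21 of 351, 17 of 357 and 17 of 362 in MDA-MB-468. The lines thus held 12 to 13 and 17 to 21 unconverted reads there, and nearly all converted reads were in MDA-MB-468.

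IFITM1 followed with 179 of 339 counts unconverted (52.8%, 47.5% to 58.1%) in MCF10A, where 20 of 25 sites were called, all in 1 stretch of 39 bases of the 5′UTR (chr11:314073-314111). The methylation ratios of the stretch ran from 30.8% to 80%, and the same 20 cytosines gave 0.873% to 3.69% in MDA-MB-468. BST2 had 336 of 1691 counts unconverted (19.9%, 18.04% to 21.8%) and 48 of 93 sites called, all in the coding sequence, with ratios from 21.1% to 40%. Opposite the BST2 exons 92 of 93 counts were unconverted in that library. The highest ratios of MCF10A at a coverage of at least 20 were in BST2, where 7 of 20 reads (35%) were unconverted at chr19:17516291, 17516292, 17516294 and 17516300 and 6 of 20 (30%) at chr19:17516276. ISG15 had 78 of 576 (13.5%, 10.99% to 16.6%) and 4 of 47 sites called, in the pairs chr1:949546-949547 and chr1:949558-949567, while IFI6 had 149 of 1757 (8.48%, 7.27% to 9.88%) and 1 of 96.

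IFITM2 and IFITM3, the members of greatest depth in MCF10A, were at or below the background of that line. Of the IFITM2 counts 70 of 9631 were unconverted (0.727%) and none of its sites was called. Of the IFITM3 counts 81 of 4333 were (1.87%), and 1 site in the 3′UTR was called with 4 of 14 reads unconverted. In MDA-MB-468 the shares of the 9 genes lay between 0.560% (IFITM2) and 1.86% (BST2), so that the spread between genes seen in MCF10A was not present there.

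**Figure D2:**
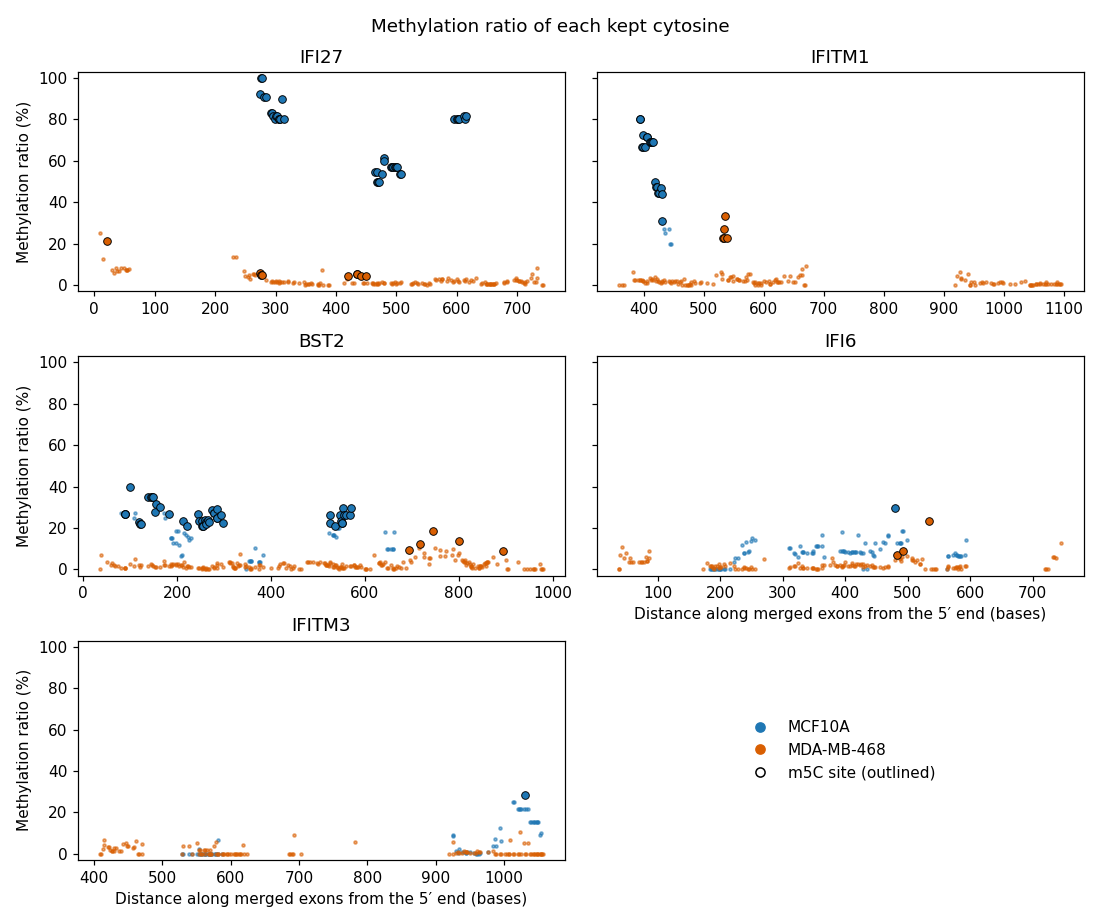
Methylation ratio in percent of every kept cytosine against its distance in bases along the merged exons from the 5′ end, for IFI27, IFITM1, BST2, IFI6 and IFITM3. MCF10A is in blue, MDA-MB-468 in orange, and m5C sites are outlined. The MCF10A calls form stretches at 50% to 100% in IFI27 and 30.8% to 80% in IFITM1, while MDA-MB-468 shows the 5-site IFITM1 cluster, sites of IFI27, IFI6 and BST2 at up to 25%, and most other cytosines near 0.

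Called sites ran together in MCF10A. Joined where 10 bases apart or less, the 113 sites formed 18 runs, and 14 runs of at least 2 sites held 109 of them (96.5%). In MDA-MB-468 the 24 sites formed 14 runs, and 4 runs of at least 2 sites held 14 (58.3%). The longest stretch of BST2 spanned 55 bases of coding sequence (chr19:17516141-17516195) with 19 sites, each with 4 to 7 unconverted of 15 to 24 reads. Its other runs of at least 2 sites lay at chr19:17514530-17514553 (9 sites), 17514575-17514576 (2), 17516217-17516226 (2), 17516276-17516300 (7), 17516315-17516321 (3) and 17516340-17516351 (4). Neighbouring cytosines of a stretch were read by the same few molecules, so its sites are not independent. By region, 25 of 75 5′UTR sites, 87 of 408 coding sites and 1 of 33 3′UTR sites were called in MCF10A, against 5 of 252, 14 of 1217 and 5 of 272 in MDA-MB-468. Of the 25 5′UTR calls of MCF10A, 20 lay in the IFITM1 stretch and the others in 1 IFI27 stretch. A site was counted as 5′UTR wherever any basic transcript placed it there. Shares by region over all kept sites were not computed, so nothing is read from these counts.

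At the 479 cytosines kept in both lines the unconverted and the converted reads could be set side by side. For IFI27 the mean unconverted reads per cytosine were 8.38 (MCF10A) and 16.0 (MDA-MB-468), while the converted reads were 3.36 and 1150. For BST2 unconverted reads were 3.61 and 3.03 and converted reads 14.6 and 218. For IFITM1 they were 7.16 and 4.04 against 6.40 and 195.

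In MDA-MB-468 relative to MCF10A, the unconverted reads of these genes stood at 1.90, 0.839 and 0.564 and the converted reads at 342, 14.97 and 30.4, in the same order. ISG15 had 1.66 and 3.0 unconverted and 10.6 and 219 converted reads per cytosine, and IFI6 had 1.55 and 4.52 against 16.8 and 281. Over all 479 cytosines the ratio of MDA-MB-468 to MCF10A was 1.40 for unconverted and 7.60 for converted reads, and over all 812729 cytosines kept in both lines 0.727 and 0.838. The source of the unconverted reads was not tested.

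**Figure D3:**
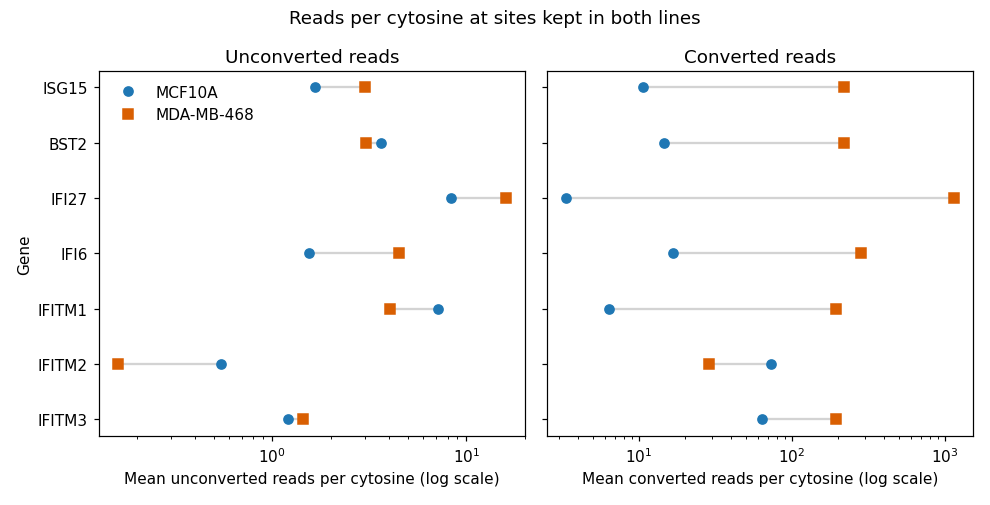
Mean unconverted reads (left) and converted reads (right) per cytosine at the sites kept in both lines, on log axes, with MCF10A as blue circles and MDA-MB-468 as orange squares. For IFI27 the lines are at 8.38 and 16.0 unconverted but 3.36 and 1150 converted reads, and the ratio of MDA-MB-468 to MCF10A is larger on the right in all 7 genes.

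Fisher's exact test, two-sided, on the reads of the 2 libraries at each site, adjusted over all 812729 common sites, called 79 of the 479 member sites, all lower in MDA-MB-468, against 0.0691% of common sites lower and 0.0202% higher. By ratio alone, 73 of the 479 were higher in MDA-MB-468, 334 were higher in MCF10A and 72 were equal. None was called higher in MDA-MB-468, also at an unadjusted p under 0.05. Against no unconverted read in MCF10A, the median site needed a ratio of 19.8% in MDA-MB-468 to reach that p, so at this depth a moderately higher ratio was not detectable and nothing is read from the missing calls. IFI27 gave 39 of 39, with differences from -49.2 to -95.3 percentage points and adjusted p from 2.73e-12 to 2.93e-06 by this exact test. IFITM1 gave 19 of 25 (-42.4 to -77.7 points) and BST2 20 of 93 (-21.1 to -37.3 points). ISG15 gave 1 of 47, at chr1:949558, where 5 of 13 reads were unconverted in MCF10A against 3 of 168 in MDA-MB-468 (adjusted p = 0.0474, Fisher's exact test). IFI6, IFITM2 and IFITM3 gave none, and the smallest adjusted p of IFI6 was 0.53 by the same exact test. For IFI6 34 of 96 sites had an unadjusted p under 0.05, for IFITM2 none of 112 and for IFITM3 1 of 67. The 10 largest differences were all in IFI27, between chr14:94578018 and chr14:94578054, led by chr14:94578020 with 100% in MCF10A and 4.70% in MDA-MB-468.

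Shares of unconverted counts were also set among those of all genes. A share of at least 10% of counts, a limit chosen after the values were seen, was reached by BST2, IFI27, IFITM1 and ISG15, 4 of the 7 members, and by 0.859% of the 8035 protein-coding genes with at least 10 kept sites. From the highest share downward IFI27 was in place 7 of 8035, IFITM1 11, BST2 23, ISG15 36 and IFI6 106. All of these had a mean coverage under 20, as did 5328 of the 8035 genes. The limit was passed by 54 of these 5328 genes, by 15 of 2519 with a mean coverage of 20 to 100 and by none of 188 above 100. In MDA-MB-468 none of the 9 members passed, against 0.605% of 7274 genes, and their places ran from 2159 (BST2) to 6731 (IFITM2). The part of depth in the share was not tested.

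**Figure D4:**
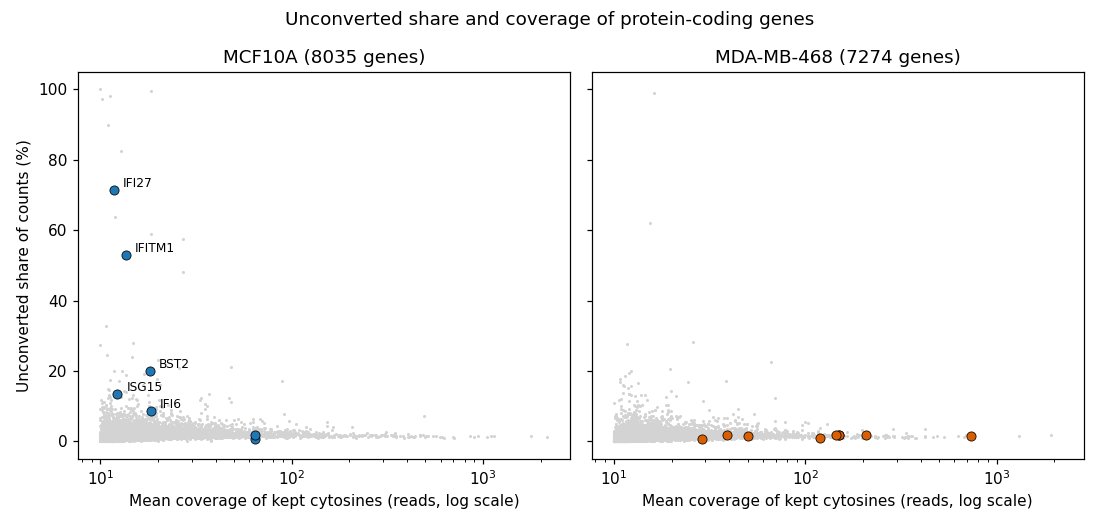
Unconverted share of counts in percent against mean coverage of kept cytosines on a log axis, for 8035 protein-coding genes of MCF10A and 7274 of MDA-MB-468 (grey), with the members coloured. IFI27, IFITM1, BST2 and ISG15 stand at 13.5% to 71.4% and a mean coverage under 20 in MCF10A, and all 9 members lie below 2% in MDA-MB-468.

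Of the 24 m5C sites of MDA-MB-468, 5 formed a cluster in IFITM1 over 7 bases of coding sequence (chr11:314212-314218), with ratios from 22.7% to 33.3% at a coverage of 44 to 52. All 5 were paired in the maximum expected accuracy (MEA) structure of every transcript that carries them. In MCF10A 3 of them were not in the file and the other two had 3 of 5 and 2 of 5 reads unconverted.

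The 5′UTR site of ISG15 at chr1:948899 had 5 of 34 reads unconverted (14.7%), against 2 of 10 in MCF10A. IFI27 had 4 called cytosines at chr14:94582154-94582169 with ratios from 4.27% to 5.38% at a coverage of 846 to 1171. Of these 4, 3 were paired in MEA structures. BST2 had 5 single sites in the 3′UTR with ratios from 8.82% to 18.8%, none of which was in the MCF10A file, and 1 of them was paired. IFI6 had 3 sites in the coding sequence, of which chr1:27992976 had the highest ratio, 4 of 17 reads (23.5%). A pair lay at chr1:27994768-27994777 (7.11% and 8.94%), and both of its sites were paired in MEA structures. IFIT3, MX1, IFITM2 and IFITM3 had no called site in MDA-MB-468. With the sites paired in MEA structures left out, 12 of the 24 calls of MDA-MB-468 and 111 of the 113 of MCF10A remained. The study filtered sites in predicted structures before its calls, and the main counts here do not.

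The genes upstream of the members were counted from a list of interferon ligands, receptors, signalling proteins and sensors. Of 34 such genes, 20 had at least 10 kept sites in a line, and 2 passed the 4-fold bound toward MDA-MB-468, against 2.48% of all genes compared. These were IRF7, which induces interferon genes, with 591 sites in MDA-MB-468 and none in MCF10A (at least 11.3-fold), and IRF9, the DNA-binding subunit of the STAT complex, with 323 and 46 sites (at least 5.48-fold). STAT2 had 291 kept sites (MCF10A) and 213 (MDA-MB-468) and passed in neither direction. No interferon gene of the list (IFNB1, IFNE, IFNK, IFNL1) had 10 kept sites in either line.

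None of the signalling genes reached an unconverted share of 10%, and their median shares were 1.47% (MCF10A) and 1.12% (MDA-MB-468). The list held 24 m5C sites among 4299 kept sites in MCF10A (0.558%), below the 0.96% of all, on TYK2 (11), STAT3 (10), IFNAR2, IFNGR2 and IL10RB (1 each). It held 27 among 4327 in MDA-MB-468 (0.624%), below the 0.84% of all, on TYK2 (13), STAT3 (10), IRF3 (2), IRF7 and MAVS (1 each).

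Of 47 other interferon-stimulated genes 36 could be compared, and 1, IFI35, passed the bound toward MDA-MB-468 (169 and 11 sites, at least 4.41-fold), and none toward MCF10A, which is near the 2.48% of all genes. Several had kept sites in MDA-MB-468 only, among them the oligoadenylate synthetases OAS1 (176 sites), OAS2 (66) and OASL (118) and the cap-recognising IFIT1 (69). They did not reach the bound, because absent cytosines may each hold 4 reads. The reverse also occurred. IFI27L2 (42 sites) and PHF11 (11) had kept sites only in MCF10A. IFI16 (120 against 29) and TRIM22 (151 against 69) were among the genes with more sites there than in MDA-MB-468. Of the 47 genes, none with at least 10 sites reached a share of 10%, and the medians were 1.91% (MCF10A) and 1.58% (MDA-MB-468). They held 36 m5C sites among 5279 in MCF10A (0.682%), of which LY6E, a membrane protein, had 22 and LGALS3BP 11, and 8 among 5854 in MDA-MB-468 (0.137%), of which LGALS3BP had 3, so both shares were below those of all kept sites. Summed counts, which grow with transcript length, were highest for LGALS3BP, ADAR, LY6E, TRIM25 and SHISA5 in MCF10A (65450 to 12193) and for LY6E, LGALS3BP, ADAR, OAS3 and TRIM25 in MDA-MB-468 (92185 to 9071).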

How the data were processed

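Poly(A)-selected RNA of 1 MCF10A and 1 MDA-MB-468 culture was measured by RNA BS-Seq. Per the methods of the study, the authors trimmed reads with Trim Galore and aligned and called RNA cytosines with MeRanTK on hg19, while the submitters' processing notes name Trim Galore and Bismark, and versions are not given in the sources used here. The deposited values are raw counts of unconverted and converted reads per cytosine from a coverage of 5, without normalization. Duplicate reads, incomplete conversion and the aligner's limit on unconverted cytosines can move a ratio.

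All 3142952 nuclear sites of MCF10A and 3486293 of MDA-MB-468 fell on a cytosine of GRCh37. Sites on a same-strand exon or on the mitochondrial chromosome, at a coverage of 10 or more, were tested by Fisher's exact test, one-sided against the summed counts, with Benjamini-Hochberg adjustment at 0.05, and sites kept in both lines two-sided against each other. QNB, used by the study, was not run here, since 1 library a line gives no spread between replicates. The members and lists were chosen with earlier results of these data known. Apart from items not reported here, the text names every member, runs of at least 2 called sites, the 5 highest ratios at a coverage of at least 20, the 10 largest differences, and list genes with an m5C site or the highest coverage. OAS1, OAS2, OASL, IFIT1, IFI27L2, PHF11, IFI16, TRIM22 and STAT2 were named after their values were seen.

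Full-length transcripts were folded with ViennaRNA 2.7.2 (MEA gamma 0.1, 70 degrees, pairing distance 150), as alternatives only. Python 3.11.15 with pandas 2.3.3, scipy 1.17.1, numba 0.67.0, numpy 2.4.6 and matplotlib 3.10.9 were used, and the tests were tried on simulated data. Marker gene PECAM1 was not analysed here.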

Additional observations from a re-analysis of the deposited data

Results flagged for a closer look

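Reads on the strand opposite the members' exons lie outside the comparisons above. In MCF10A 849 of 859 such counts at a coverage of at least 10 were unconverted (98.8%). They came from IFI27, with 757 of 766 counts on 52 cytosines, and BST2, with 92 of 93 counts on 9. From a coverage of 5 upward IFI6, IFITM1 and IFITM3 also had opposite-strand counts, of which 97.8%, 97.5% and 86.6% were unconverted, while ISG15, IFITM2, IFIT3 and MX1 had none. In MDA-MB-468 73 of 183 were unconverted (39.9%), made up of 73 of 73 counts opposite IFI27 and 0 of 110 opposite MX1, whose exons are overlapped by antisense transcripts. Opposite the exons of all protein-coding genes, on cytosines outside any exon of their own strand, 39.3% of counts were unconverted in MCF10A and 15.8% in MDA-MB-468. What produced the opposite-strand reads was not tested.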

How the results depend on the processing

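No paired analysis was possible because the labels give no shared replicate numbers and each line has 1 library. A coverage minimum of 20 lowered the m5C sites of MCF10A from 113 to 22, its unconverted share from 6.49% to 2.02% and the differential sites from 79 to 15, since IFI27, IFITM1 and ISG15 have no MCF10A site that deep. Leaving out sites of pairing probability over 0.5 gave 55 m5C sites and a share of 4.97% in MCF10A, 8 m5C sites and 1.43% in MDA-MB-468, and 41 differential sites. Leaving out sites paired in MEA structures gave 12 m5C sites and 1.45% in MDA-MB-468, and a ratio of at least 20% gave 8. Sites with a window on another gene left out moved the MCF10A share to 7.02%. The coverage fold of the summed members, 21.6, became 19.3 with all deposited sites, 10.3 over common sites, 12.6 scaled to all deposited counts, 14.4 from median coverages and 22.5 without sites that have a window on another gene. All differential sites were lower in MDA-MB-468 under the settings run. The other settings changed no count by over 1.5 times. In each line a call at a coverage of 10 needs 4 unconverted reads, which limits what could be called on shallow sites.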
